A study of Homo sapiens with 6 samples.

Results

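Amino acids enter cells through families of membrane carriers, and 9 genes of these carriers were followed here through RNA-seq of K562 cells in which lncRNA-IUR-5 was knocked down. K562 is a human leukemic cell line that carries the BCR-ABL fusion kinase. The genes were SLC7A5, SLC3A2, SLC7A1, SLC7A6, SLC38A1, SLC38A2, SLC38A5, SLC1A4 and SLC1A5. They were chosen by name, with earlier results of these data known. Every row of the deposited table whose RefSeq protein accession belongs to one of them was used. This gave 34 of 109018 rows and 9 of the 19053 genes with a symbol. Of the 9 genes, 7 passed the minimum level for testing, a mean of at least 1 RPKM (reads per kilobase of row length and per 1000000 reads) in at least 1 row.

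These carriers work in different ways. SLC7A5 (LAT1) and SLC7A6 (y+LAT2) are light chains that exchange amino acids across the membrane only when joined to the heavy chain SLC3A2 (CD98), while SLC7A1 (CAT1) carries cationic amino acids such as arginine by itself. SLC38A1, SLC38A2 and SLC38A5 (SNAT1, SNAT2 and SNAT5) move small neutral amino acids, glutamine among them, together with sodium. SLC1A4 (ASCT1) and SLC1A5 (ASCT2) are sodium-dependent exchangers of neutral amino acids, and glutamine brought in by such carriers can be exchanged through LAT1 for leucine, a signal that the kinase complex mTORC1 senses at the lysosome.

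The knockdown group was 3 libraries of K562 cells stably expressing a short hairpin RNA against the lncRNA (sh-IUR-5, written sh-lncRNA-IIRX in the sample labels) from a lentiviral vector with a GFP marker. The control group was 3 libraries of K562 cells with a hairpin against luciferase in the same kind of vector (sh-luc). The comparison asks which transcripts differ in level when the lncRNA is silenced. The paper's methods describe the cells as 3 independent groups, which the labels do not state. The labels instead put libraries 2 and 3 under a shared series, in sh-luc and in sh-IUR-5 alike. The p-values therefore measure the spread between these libraries, part of which may be technical. The rows of the table are protein accessions, and the lncRNA itself was not analysed here.

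Each sh-luc library had 21023739 to 23320543 reads counted on accessions, and each sh-IUR-5 library 24325122 to 31481109. Erythroid genes typical of this line were abundant, with HBG1, a fetal globin gene, at 8070.5 ± 516 summed RPKM in sh-luc (SD, n = 3), while 8 of 9 markers of other cell types lay under the minimum level, with MS4A1 at 0. The exception was EPCAM, at 91.4 ± 6.93 in sh-luc and 104 ± 10.9 in sh-IUR-5. Summed RPKM here is the RPKM added over all rows of a gene, scaled to total reads alone. Fold changes and tests are from edgeR on summed reads after TMM scaling, which corrects for the make-up of each library, and over all 8944 genes tested they lie 0.17 lower on the log2 scale than fold changes on total reads. Of those 8944 genes, 26.4% were called higher and 23.2% lower in sh-IUR-5 (edgeR, adjusted p under 0.05), so a call alone sets no gene apart. In these bulk libraries, fewer cells of a kind and less RNA per cell cannot be told apart.

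Among the transporters, SLC38A2, SLC7A6 and SLC1A4 rose and SLC38A5 fell on knockdown, while SLC7A5, SLC3A2 and SLC1A5 did not pass the test. That is 3 of 7 tested genes higher and 1 lower, against 26.4% and 23.2% of all genes tested. The median log2 fold change was 0.35 against 0.01 over all genes tested. SLC38A1 and SLC7A1 lay under the minimum level because their reads are spread over several rows or are few, and were tested among all 15058 genes with a read, of which 18.1% were called higher and 15.6% lower. SLC38A1 rose there and SLC7A1 did not pass. In that wider test 3 of the 9 transporters were higher (SLC38A2, SLC38A1 and SLC7A6) and 1 lower (SLC38A5), since SLC1A4 no longer passed (edgeR, adjusted p = 0.0668).

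In control cells the order of the levels, compared by summed RPKM, ran over more than 2 orders of magnitude. SLC3A2 stood first at 129 ± 4.43 summed RPKM and SLC38A5 next at 120 ± 11.3, with overlapping ranges (SD, n = 3 here and below). SLC1A5 followed at 50.2 ± 3.07 and SLC38A2 at 12.5 ± 1.73. SLC1A4, SLC38A1, SLC7A5 and SLC7A6 lay close together at 4.32 ± 0.471, 3.41 ± 0.319, 2.80 ± 0.267 and 2.14 ± 0.252, each just above the highest library of the next, and SLC7A1 was last at 0.382 ± 0.108. This order depends on adding 1 to 10 rows per gene, which can share reads. By the highest single row in sh-luc, SLC3A2 at 35.6 RPKM was still first, but SLC1A5 at 17.3 stood above SLC38A5 at 16.1. SLC38A1 at 0.461 stood below SLC7A6 at 1.15 by that measure. By summed RPKM in sh-IUR-5 cells SLC38A1 stood above SLC1A4, the ranges of SLC3A2 and SLC38A5 no longer overlapped, and those of SLC7A5 and SLC7A6 did. The heavy chain was thus present at a summed RPKM far above either light chain in both groups.

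**Figure D1:**
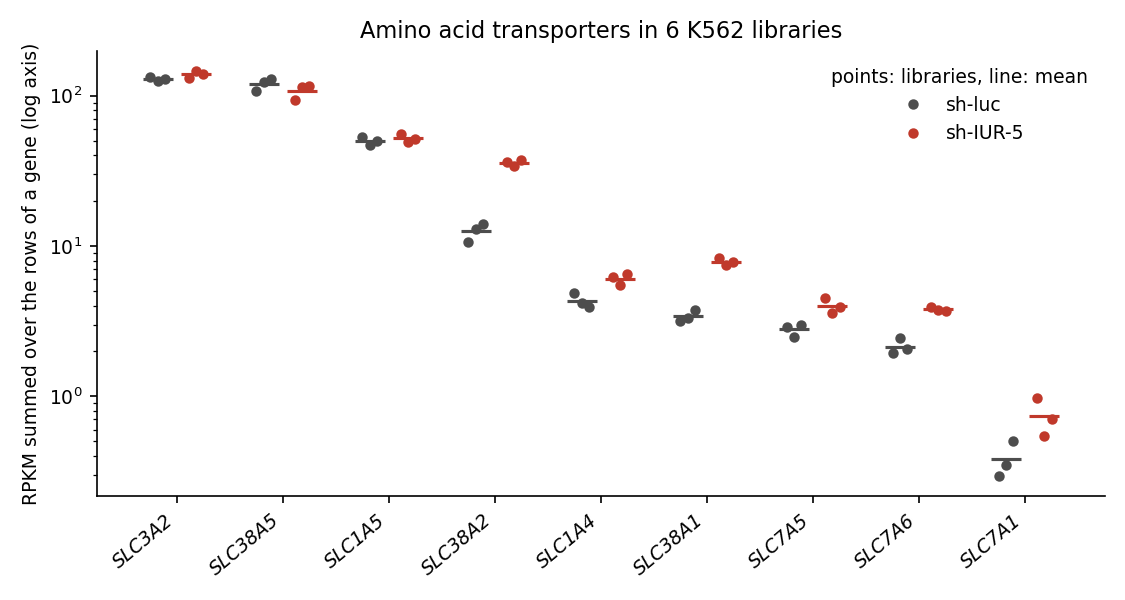
Summed RPKM (log axis) of the 9 transporters in each of 3 sh-luc (grey) and 3 sh-IUR-5 (red) libraries, with points for libraries and lines for means. SLC38A2, SLC38A1, SLC7A6, SLC7A5, SLC1A4 and SLC7A1 lie above their controls without overlap, while SLC3A2, SLC38A5 and SLC1A5 overlap on this scale.

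SLC38A2, the sodium-coupled neutral carrier SNAT2 that cells are known to induce when amino acids run short, gave the largest change. Its summed RPKM was 10.6, 12.9 and 14 in sh-luc and 36.1, 34.2 and 37.3 in sh-IUR-5 libraries, from 343 to 405 and 1152 to 1572 reads. Every knockdown library lay above every control library. The log2 fold change was 1.35 ± 0.0998 (SE), 2.56-fold, with an edgeR adjusted p of 1.9e-05, and 13 of the 8944 tested genes had a higher log2 fold change. Its 2 rows, NP_061849.2 of 1521 bases and NP_001294865.1 of 1221 bases, moved alike, from 6.56 ± 0.730 to 19.6 ± 0.930 and from 5.96 ± 1.00 to 16.2 ± 0.642 RPKM.

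SLC38A1 (SNAT1), its nearest relative among the 9, rose as well. The summed RPKM was 3.16, 3.29 and 3.77 in sh-luc and 8.31, 7.44 and 7.79 in sh-IUR-5 cells, again without overlap. Its 102 to 115 control reads and 262 to 379 knockdown reads are spread over 10 rows, the best of which averaged 0.667 RPKM. Among all genes with a read the log2 fold change was 1.00 ± 0.126 (SE) with an edgeR adjusted p of 1.3e-06, and with a minimum of 1 summed RPKM, an alternative added after the data were seen, it was 0.99 with an edgeR adjusted p of 5.1e-05. Each of the 10 rows was higher in sh-IUR-5, by 0.59 to 1.54 on the log2 scale. All lay under the minimum level. Among all rows with a read their edgeR adjusted p ran from 8.3e-06 to 0.173, so some did not pass. In 8 rows the RPKM of the groups did not overlap, and rows of one gene can share reads.

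SLC38A1 and SLC38A2 lie 89.1 kb apart on chromosome 12 and are read from the same strand, at chr12:46183063-46269043 and chr12:46358188-46372773 (minus strand, GRCh38.p14). Within 1000000 bases of the pair, 3 other genes passed the minimum level, picked for their place after the values were seen. All 3 rose, where 26.4% of all genes tested were called higher. ANO6 rose by 0.89 ± 0.107, ARID2 by 0.60 ± 0.0947 and SCAF11 by 0.39 ± 0.0743 (log2, SE, with edgeR adjusted p = 8.2e-05, 0.000403 and 0.0013). Values of these 3 genes with a library left out, or with trends on coding G or C removed, are not given here. Under the minimum level there, AMIGO2 was at 1.04 and PCED1B at 0.15 among all genes with a read, neither past the threshold (edgeR adjusted p = 0.0738 and 0.649). SLC38A4, the third SNAT gene there, was at 0.0365 ± 0.0135 summed RPKM in sh-luc and 0.0228 ± 0.0248 in sh-IUR-5.

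The start-site windows of these neighbours are shown because they gave the largest changes among the 9 genes. They are RefSeq promoter windows on GRCh38.p14, 5′ to 3′ on the gene's strand, from 250 bases before to 50 after a start, chr12:46266467-46266766 for SLC38A1, the one of its 2 windows that holds matches, and chr12:46372724-46373023 for SLC38A2. Capitals mark matches to TTCNNNGAA, the core that STAT factors recognise, and TGATGNAA, the core of the element bound by ATF4 and C/EBP factors.
SLC38A1: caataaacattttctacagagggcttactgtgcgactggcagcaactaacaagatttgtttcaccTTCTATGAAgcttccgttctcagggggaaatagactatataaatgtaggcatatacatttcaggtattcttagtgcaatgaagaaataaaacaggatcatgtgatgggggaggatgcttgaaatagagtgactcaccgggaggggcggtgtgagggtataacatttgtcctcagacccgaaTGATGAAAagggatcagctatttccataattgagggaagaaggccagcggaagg
SLC38A2: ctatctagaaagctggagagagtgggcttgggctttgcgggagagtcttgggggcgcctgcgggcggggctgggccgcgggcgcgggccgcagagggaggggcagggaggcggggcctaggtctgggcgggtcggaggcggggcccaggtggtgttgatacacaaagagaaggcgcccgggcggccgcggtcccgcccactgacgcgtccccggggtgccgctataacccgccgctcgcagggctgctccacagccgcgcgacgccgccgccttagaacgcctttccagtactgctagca
The SLC38A1 window holds a TTCNNNGAA match whose first base is at -185 relative to the start, and a TGATGNAA match at -4, and 43.3% of its bases are G or C. The other SLC38A1 window, chr12:46267938-46268237, is 62.3% G or C and holds no match to the 3 cores searched. The SLC38A2 window is 72.0% G or C and holds no match to either core or to CACGTG, the E-box core. A match is a description of letters and not of a factor's binding. Sequence outside the start-site windows was not searched, so the lack of a match holds for the window alone.

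The same 3 cores were searched on both strands in all 15 RefSeq windows of the 9 genes. TGATGNAA lay in 5 of them, 1 each of SLC3A2, SLC7A1, SLC38A1, SLC1A4 and SLC1A5, against 3.62% of all 35116 windows. TTCNNNGAA lay in 3 windows, 2 of SLC3A2 and 1 of SLC38A1, against 7.66%. CACGTG lay in 3 windows, of SLC7A5, SLC38A5 and SLC1A5, against 7.26%. Over the 10187 windows of tested genes the shares were 1.68% for TGATGNAA, 6.01% for TTCNNNGAA and 10.3% for CACGTG. TTCNNNGAA and CACGTG read the same on both strands. Windows of a gene can share bases, and the single windows of SLC38A2 and SLC7A6, which rose, held none of the 3.

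SLC38A5 (SNAT5), a carrier that can also release glutamine, went the other way. It had 107, 124 and 129 summed RPKM in sh-luc and 93.9, 114 and 116 in sh-IUR-5 libraries, and these ranges overlapped. After TMM scaling all 3 knockdown libraries lay below all 3 control libraries, with a log2 fold change of -0.33 ± 0.102 (SE) and an edgeR adjusted p of 0.0210. Its 8 rows, of 1419 to 1620 bases and each with 11.8% to 13.7% of the gene's control reads, had log2 fold changes of -0.44 to -0.27. The call was lost without sh-luc library 2 or 3 (log2 fold change -0.30 and -0.28, edgeR adjusted p = 0.0646 and 0.0887), and on total reads alone the value was -0.16 (edgeR adjusted p = 0.186). The 3 SNAT genes of this set therefore did not move together. SLC38A5 lies at chrX:48458544-48470260 (minus strand).

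**Figure D2:**
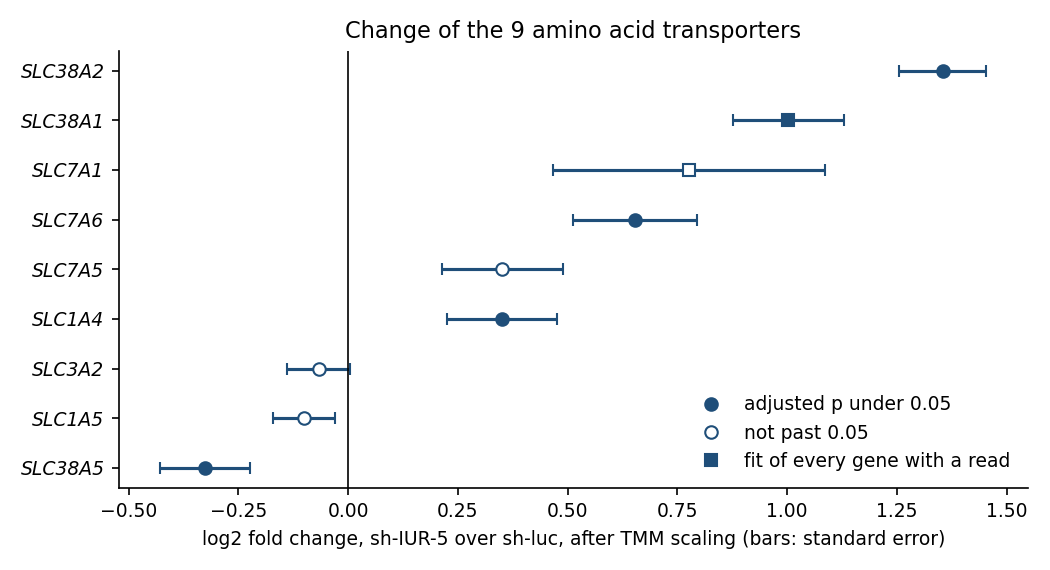
Log2 fold change of sh-IUR-5 over sh-luc for the 9 transporters after TMM scaling, with standard errors as bars. Squares are the 2 genes under the minimum level, tested among all genes with a read; filled marks passed an adjusted p of 0.05, led by SLC38A2 at 1.35 and SLC38A1 at 1.00.

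Of the light chains that pair with CD98, SLC7A6 rose. This exchanger of cationic for neutral amino acids had 1.94, 2.42 and 2.06 summed RPKM in sh-luc and 3.90, 3.77 and 3.71 in sh-IUR-5 libraries, so that the groups did not overlap. The log2 fold change was 0.65 ± 0.141 (SE) with an edgeR adjusted p of 0.00279. Both of its rows, each of 1548 bases, passed the test singly, at 0.48 ± 0.180 for NP_001070253.1 and 0.79 ± 0.175 for NP_003974.3 (log2, SE; edgeR adjusted p = 0.0409 and 0.00172). The depth behind these values was 67 to 80 reads in a control and 142 to 190 in a knockdown library. The gene lies at chr16:68264526-68301819 (plus strand).

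SLC7A5, the light chain LAT1 that imports leucine and other large neutral amino acids, had 2.90, 2.49 and 3.0 summed RPKM in its single row in sh-luc and 4.50, 3.59 and 3.95 in sh-IUR-5 libraries. The groups did not overlap, yet the log2 fold change of 0.35 ± 0.137 (SE) missed the threshold with an edgeR adjusted p of 0.0521. It rested on 81 to 103 control and 133 to 216 knockdown reads, with the most reads in the deepest library, sh-IUR-5 library 1. With a term for the label series it was 0.35 with an edgeR adjusted p of 0.0267, and leaving out any 1 library gave 0.28 to 0.40 with edgeR adjusted p from 0.0591 to 0.161. SLC7A5 lies at chr16:87830023-87869507 (minus strand).

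SLC3A2, the heavy chain that carries both light chains to the membrane, was at 134, 125 and 128 summed RPKM in sh-luc and 132, 146 and 139 in sh-IUR-5 cells. The ranges overlapped and the log2 fold change was -0.067 ± 0.0713 (SE; edgeR adjusted p = 0.457), a value that was 0.10 on total reads, so no direction is given. None of its 4 rows passed the test. The share of the gene's reads on NP_001012680.1 was 29.5% in sh-luc and 27.9% in sh-IUR-5 and that on NP_001013269.1 was 21.6% and 22.7%, both without overlap between the groups and not tested. The gene lies at chr11:62856109-62888860 (plus strand).

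SLC7A1, the arginine carrier, was near the floor of these libraries, with 13, 14 and 20 reads in sh-luc and 58, 25 and 33 in sh-IUR-5 libraries. Its summed RPKM was 0.382 ± 0.108 and 0.741 ± 0.218, but after TMM scaling the groups overlapped. Among all genes with a read the log2 fold change was 0.78 ± 0.310 (SE) with an edgeR adjusted p of 0.0559. It passed without sh-IUR-5 library 2 (0.93, edgeR adjusted p = 0.0291) and without sh-luc library 3 (1.02, edgeR adjusted p = 0.0372), so 1 library decides the call. SLC7A1 lies at chr13:29509414-29595688 (minus strand).

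Of the SLC1 exchangers, SLC1A4 passed the test and SLC1A5 did not. SLC1A4, which exchanges alanine, serine and cysteine, had 4.84, 4.18 and 3.93 summed RPKM in sh-luc and 6.20, 5.46 and 6.54 in sh-IUR-5 libraries without overlap. The log2 fold change was 0.35 ± 0.126 (SE; edgeR adjusted p = 0.0371), but the call was lost without any of 5 of the 6 libraries, all except sh-luc library 1, with values of 0.29 to 0.39 and edgeR adjusted p from 0.0531 to 0.126. Its longer row of 1599 bases, NP_003029.2, holds 80.5% of the control reads and gave 0.37 ± 0.128, while the row of 705 bases gave 0.13 ± 0.247. SLC1A4 lies at chr2:64988479-65023865 (plus strand).

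SLC1A5, the glutamine exchanger ASCT2, was the third most abundant transporter and showed no change past the test. It had 53.3, 47.2 and 50.0 summed RPKM in sh-luc and 55.6, 49.4 and 51.6 in sh-IUR-5 libraries, with overlapping ranges. The log2 fold change was -0.10 ± 0.0712 (SE; edgeR adjusted p = 0.266) and 0.073 on total reads, so its sign depends on the scaling. None of its 3 rows passed the test. The gene lies at chr19:46774883-46788594 (minus strand).

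Read singly, 22 of the 34 rows passed the minimum level, 5 of them were called higher and 7 lower, against 19.2% higher and 18.1% lower over all 38204 rows tested. The 5 were both rows of SLC38A2, both of SLC7A6 and the longer row of SLC1A4, and the 7 were all rows of SLC38A5 (edgeR, adjusted p from 0.00702 to 0.0394 for these) except XP_016885449.1 (edgeR, adjusted p = 0.0564). Isoform rows of one gene can share reads, so they are not separate evidence. After TMM scaling, the groups did not overlap for 5 of the 7 tested transporters, against 58.0% of all tested genes.

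**Figure D3:**
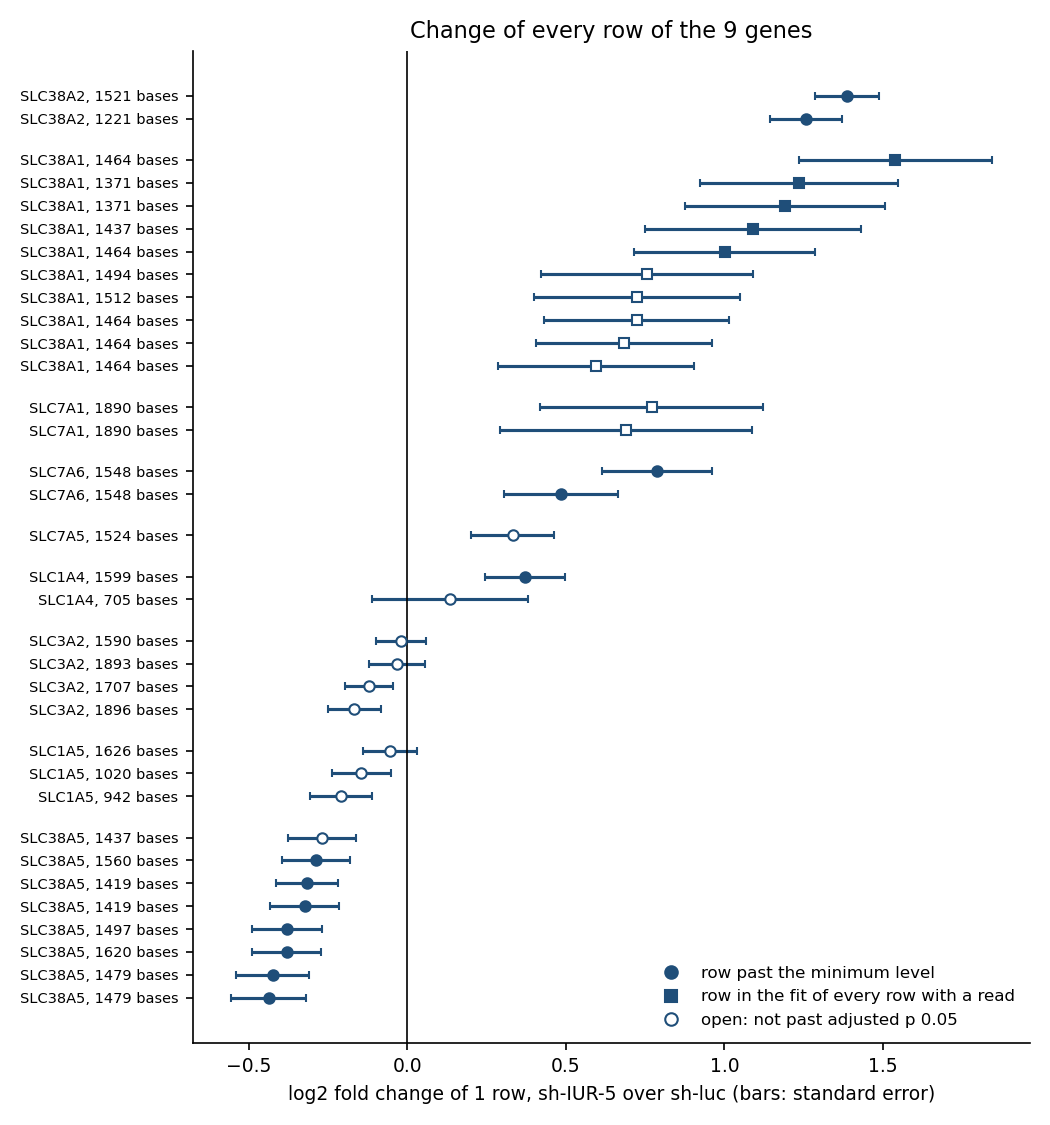
Log2 fold change of each of the 34 rows, grouped by gene and labelled with the row's length, with standard errors as bars. The 10 rows of SLC38A1 lie between 0.59 and 1.54 and the 8 rows of SLC38A5 between -0.44 and -0.27.

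Ratios between transporters within a library do not depend on its scaling factor. The ratio of SLC7A6 to SLC3A2 reads was -6.12 ± 0.213 in sh-luc and -5.39 ± 0.106 in sh-IUR-5 on the log2 scale (mean ± SD, n = 3), and that of SLC7A5 to SLC3A2 was -5.75 ± 0.115 and -5.34 ± 0.241. Both differences, 0.73 and 0.42, came without overlap, with more light chain reads per heavy chain read in every knockdown library. The ratio of SLC7A5 to SLC7A6 was 0.36 ± 0.301 in sh-luc and 0.053 ± 0.140 in sh-IUR-5 and overlapped.

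Among the SNAT genes, SLC38A5 to SLC38A1 was 5.17 ± 0.0790 in sh-luc and 3.81 ± 0.242 in sh-IUR-5, a difference of -1.36. SLC38A2 to SLC38A1 was 1.8 ± 0.110 and 2.13 ± 0.0725, a difference of 0.33. The abundant exchanger SLC1A5 was lower in knockdown libraries relative to both SLC1A4 (3.43 ± 0.0870 and 2.98 ± 0.0611) and SLC7A5 (3.81 ± 0.106 and 3.36 ± 0.0790), with a difference of -0.45 each. Of the 7 ratios, 6 did not overlap between the groups and reached an exact two-sided permutation p of 0.1, the smallest that 3 libraries against 3 allow, or 0.117 adjusted over the 7 ratios. None of them could pass the threshold in this design. The share of other gene pairs whose ratios do not overlap was not computed, while 58.0% of single tested genes did not overlap after TMM scaling.

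**Figure D4:**
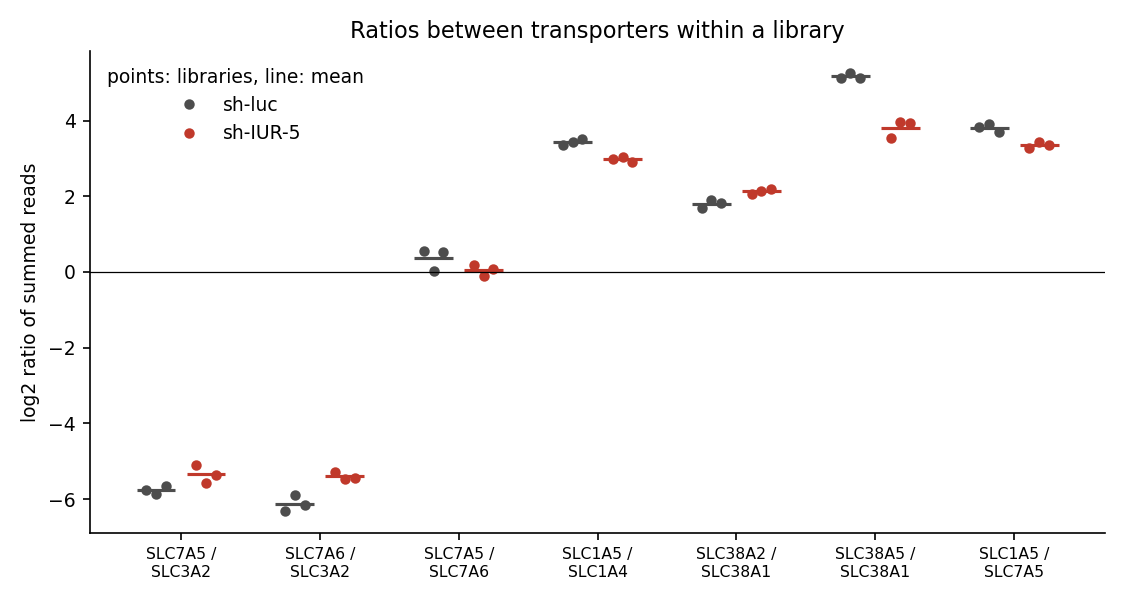
Log2 ratio of the summed reads of 2 transporters in each of 3 sh-luc (grey) and 3 sh-IUR-5 (red) libraries, with lines for means. The largest shift is that of SLC38A5 to SLC38A1, by -1.36, and SLC7A5 to SLC7A6 is the one ratio whose groups overlap.

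Several measured properties moved with these results. SLC38A2 and SLC38A1 have 40.5% and 41.4% G or C in their coding sequence, under the lower quartile of tested genes, 44.7%, while the other 7 transporters have 52.8% to 63.1%. Over all tested genes the median log2 fold change was 0.16 among genes under that quartile and -0.10 among genes above the upper quartile, 59.4%. With each library's trends on coding G or C and on length removed, SLC38A2 was at 1.15, SLC38A1 at 0.85, SLC7A6 at 0.56 and SLC38A5 at -0.36, all past the threshold (edgeR, highest adjusted p = 0.0262). The sh-IUR-5 libraries were also deeper, and the part of depth in the results was not tested.

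Over all genes tested, 26.4% were called higher and 23.2% lower, the shares to set beside the list counts below. Of 26 other amino acid transporters of the cell surface, 8 had no read in any library and 5 passed the minimum level. Of the 5, 2 rose and 0 fell, with a median log2 fold change of 0.41: SLC7A8 (LAT2), another light chain of CD98, by 0.60 ± 0.192 and SLC3A1, the heavy chain rBAT, by 0.55 ± 0.144 (SE; edgeR adjusted p = 0.0235 and 0.0087), the second at 0.30 and no longer past the threshold (edgeR adjusted p = 0.0772) with trends on G or C and length removed. SLC7A8 had 5.38, 4.26 and 4.98 summed RPKM in sh-luc and 11.3, 6.60 and 7.06 in sh-IUR-5 libraries, and lost its call without sh-IUR-5 library 1, sh-luc library 2 or sh-luc library 3 (0.32, 0.50 and 0.60 on the log2 scale, edgeR adjusted p = 0.0795, 0.0804 and 0.0633). SLC7A11, the cystine carrier xCT that also pairs with CD98, was at 0.39 ± 0.190 (SE; edgeR adjusted p = 0.110). Among all genes with a read the taurine carrier SLC6A6, named after its value was seen, rose by 0.58 ± 0.170 (edgeR adjusted p = 0.00918).

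At the lysosome, where amino acids are sensed, 14 of 17 listed transporters, Rag GTPases and Ragulator subunits passed the minimum level. Of these, 4 rose and 3 fell, against 26.4% higher and 23.2% lower over all genes tested, and the median was -0.019. Of Ragulator, the scaffold that holds the Rag GTPases, 3 subunits fell, 1 rose and LAMTOR1, at -0.17, did not pass (edgeR adjusted p = 0.117). LAMTOR2 and LAMTOR4 fell by 0.79 and 0.79 and LAMTOR5 fell by 0.21, while LAMTOR3 rose by 0.44 (log2; edgeR adjusted p = 2e-05, 2e-05, 0.0208 and 0.00177). LAMTOR2 had 162 to 169 summed RPKM in sh-luc libraries and 108 in every sh-IUR-5 library, with no overlap. With trends on G or C and length removed, LAMTOR2 and LAMTOR4 were at -0.51 and -0.45 and still passed (edgeR adjusted p = 0.000148 and 0.000825).

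The glutamine carrier of the lysosome SLC38A7 (SNAT7), the histidine and peptide carrier SLC15A4 and the GTPase RRAGC rose by 0.40, 0.42 and 0.28 (log2; edgeR adjusted p = 0.0459, 0.0340 and 0.0275). LAMTOR2, LAMTOR3 and LAMTOR4 passed with every single library left out, and the other 4 calls were lost without some single libraries (edgeR adjusted p from 0.0505 to 0.118 for SLC15A4 without any but sh-luc 2, 0.0788 to 0.166 for SLC38A7 without sh-IUR-5 1 or 2 or sh-luc 1 or 2, with a value of 0.26 without sh-luc 1, 0.0549 to 0.0992 for RRAGC without sh-IUR-5 1 or 3 or sh-luc 2 or 3, and 0.0507 to 0.0641 for LAMTOR5 without sh-IUR-5 3 or sh-luc 2 or 3). SLC38A9, the lysosomal arginine sensor of the SNAT family, lay under the minimum level and was picked after its value was seen. Among all genes with a read it rose by 0.52 ± 0.113 (SE; edgeR adjusted p = 0.000756), from 6.65 ± 0.498 to 10.9 ± 0.922 summed RPKM.

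Of the 9 core genes of mTORC1 and its TSC inhibitor, 6 were tested. Of these, 3 rose and 2 fell, against 26.4% higher and 23.2% lower over all genes tested, and the median was 0.033. The kinase MTOR and its partner RPTOR rose by 0.57 ± 0.0712 and 0.44 ± 0.0997 (log2, SE; edgeR adjusted p = 9.6e-05 and 0.00374), and both calls held with any 1 library left out, while MTOR was at 0.32 with trends on G or C and length removed (edgeR adjusted p = 0.00176). The substrate and inhibitor AKT1S1 (PRAS40) rose by 0.26, and MLST8 and the activating GTPase RHEB fell by 0.27 and 0.25 (edgeR adjusted p = 0.0471, 0.0134 and 0.0175). The call of AKT1S1 was lost without any library but sh-IUR-5 3 (edgeR adjusted p from 0.0681 to 0.172), that of MLST8 without sh-luc 3 (edgeR adjusted p = 0.0689) and that of RHEB without sh-luc 2 or 3 (edgeR adjusted p = 0.0643 and 0.0544). On total reads MLST8 and RHEB, at -0.094 and -0.079, did not pass.

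ATF4 is the transcription factor through which cells answer amino acid shortage, and SLC38A2, SLC7A5, SLC3A2, SLC7A1, SLC1A4 and SLC1A5 are among the genes it is known to induce. Of 16 listed genes of this response, 14 were tested. Of these, 1 rose and 4 fell, against 26.4% higher and 23.2% lower over all genes tested, and the median was 0.0082. ATF4 itself was at 338, 284 and 267 summed RPKM in sh-luc and 263, 245 and 243 in sh-IUR-5 cells and fell by 0.42 on the log2 scale, as did DDIT3 (CHOP) by 0.48 and the serine and folate enzymes PHGDH and MTHFD2 by 0.42 and 0.46 (edgeR adjusted p = 0.00227, 0.0123, 0.00208 and 0.00316). On RPKM with limma (pseudocount 0.1) ATF4 was at -0.25 with an adjusted p of 0.0448, and DDIT3, PHGDH and MTHFD2, at -0.21, -0.18 and -0.27, did not pass (limma adjusted p = 0.368, 0.197 and 0.0837). PSAT1, the serine enzyme after PHGDH, rose by 0.31 (edgeR adjusted p = 0.0398), a call lost without sh-IUR-5 2 or 3 or sh-luc 1 or 2 (edgeR adjusted p from 0.0596 to 0.144), with a value of 0.20 without sh-luc 1. Asparagine synthetase, ASNS, was at -0.20 ± 0.0756 (SE; edgeR adjusted p = 0.0501), and the stress genes TRIB3 and SESN2 at 0.37 and 0.25 did not pass. The rise of SLC38A2 thus stood beside a lower ATF4 transcript level, and protein was not measured in these files.

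Of 14 listed enzymes that make or use glutamine and glutamate, 12 were tested. Of these, 8 rose and 1 fell, against 26.4% higher and 23.2% lower over all genes tested, and the median was 0.29. PPAT, which spends glutamine on purines, rose by 0.72 ± 0.0971, glutamate dehydrogenase GLUD1 by 0.53 ± 0.0696 and CAD, which spends glutamine on pyrimidines, by 0.34 ± 0.0667 (log2, SE; edgeR adjusted p = 0.000154, 0.000138 and 0.00151). These 3 calls held with any 1 library left out. With trends on G or C and length removed, PPAT and GLUD1 were at 0.51 and 0.41 and still passed (edgeR adjusted p = 0.00107 and 0.000538). CAD was then at 0.18 and did not pass (edgeR adjusted p = 0.0655). GLUD1 shares most of its coding sequence with GLUD2, so its reads may be split between them. The proline enzyme PYCR1 fell by 0.30 (edgeR adjusted p = 0.0313), a call lost without sh-IUR-5 library 3 or sh-luc library 2 or 3 (edgeR adjusted p = 0.0594, 0.0909 and 0.149).

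**Figure D5:**
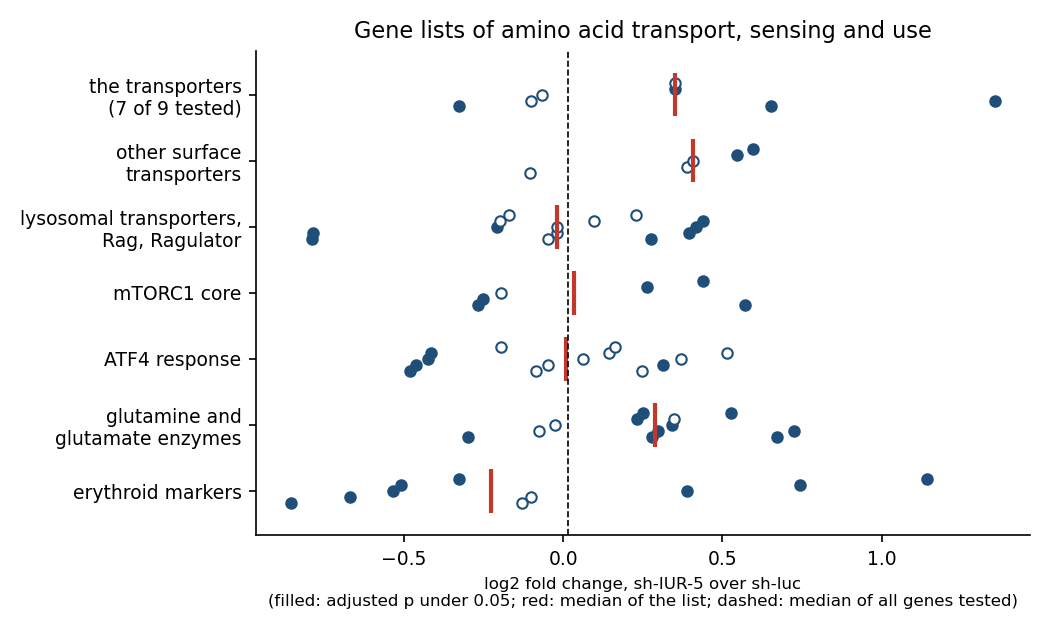
Log2 fold change of the tested genes of each list, filled where adjusted p was under 0.05, with the list's median in red and the median of all tested genes dashed at 0.01. The transporters, the other surface transporters and the glutamine enzymes have medians of 0.35, 0.41 and 0.29, and the remaining lists have medians of -0.23 to 0.033.

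Erythroid genes of K562 moved in both directions beside these results. Of 10 tested, 3 rose and 5 fell, against 26.4% higher and 23.2% lower over all genes tested, and the median was -0.23. The transferrin receptor TFRC rose by 1.14 ± 0.0799 and the transcription factor TAL1 by 0.75 ± 0.102, whereas the embryonic globins HBZ and HBE1 fell by 0.85 and 0.67 and the fetal globins HBG1 and HBG2, whose near-identical sequences may share reads, fell by 0.53 and 0.51 (log2, SE; edgeR, highest adjusted p = 0.000171). These 6 calls held with any 1 library left out. The reference genes ACTB and GAPDH had log2 fold changes of 0.044 and -0.16 (edgeR adjusted p = 0.588 and 0.0489). The part of these erythroid shifts in the transporter results was not tested.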

How the data were processed

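RNA was sequenced by Illumina and, per the labels, processed with CASAVA 1.8, Trimmomatic 0.32, Bowtie2 2.1.0 and SAMtools 0.1.19 on hg38; the methods name CASAVA for base calling and SAMtools for RPKM, while the version of RefSeq and how reads shared by isoforms were assigned are not given in the sources used here. The authors deposited read counts per RefSeq protein accession, without normalization, and RPKM made from them, which equal reads over row length and summed reads of the library. A table of the authors' own comparison (pooled RPKM, fold changes, p-values) was not used. Symbols were matched by accession through RefSeq genes of GRCh38.p14 for 64.7% of rows, which hold 84.4% of reads; reads on rows without a symbol may belong to the genes described. Coordinates are from RefSeq and coding G or C from GENCODE on hg38.

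Counts were summed per gene and compared with edgeR 4.0.16 (R 4.3.3; TMM, quasi-likelihood, two-sided, Benjamini-Hochberg over all genes tested, threshold 0.05), 3 sh-IUR-5 against 3 sh-luc libraries, for genes with a row of mean RPKM of at least 1. Single rows were fitted likewise. Ratios were compared by exact two-sided permutation tests. Alternatives were DESeq2 1.42.0 and its size factors, limma 3.58.1 on log2(RPKM + 0.1) or log2(RPKM + 1) of a gene's row with the most reads, total reads, upper quartile, other minimum levels, 1 row per gene, rows without a symbol, trends on G or C and length (mgcv 1.9.3), the label series, a replicate block and each library left out. The scripts were tested on simulated data. From each further list, up to 4 higher and 4 lower genes past the threshold, those with the largest change, are named, apart from 2 whose results are not reported here. Genes picked otherwise are named as such; SLC7A11, ASNS, TRIB3, SESN2 and EPCAM were also picked after their values were seen. The members and lists were chosen with earlier results of these data known.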

Additional observations from a re-analysis of the deposited data

How the results depend on the processing

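SLC38A2 (1.15 to 1.57 on the log2 scale), SLC38A1 (0.36 to 1.20) and SLC7A6 (0.56 to 0.92) kept their direction and passed the threshold in all 20, 18 and 19 alternatives run for them. The number of genes called, 4441, became 2869 with a minimum row RPKM of 5 and 8477 with rows without a symbol kept, both of which change how many features are tested. The number of rows called, 14259, became 7357 with a minimum RPKM of 5 and 9269 with trends on G or C and length removed; the cause of the last was not tested. Without TMM factors 77.2% of calls were higher in place of 53.2%.

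SLC7A5 passed with trends removed (0.39), the label series (0.35), limma at 0.1 and 1 (0.50 and 0.40), 1 row per gene (0.35), rows without a symbol (0.34), total reads (0.53) and upper quartile (0.37), and not in the other alternatives except the block below; SLC7A1 passed with the label series (0.77), rows without a symbol (0.74) and total reads (0.98), and ran from 0.56 to 1.02 with 1 library left out. SLC38A5 missed the threshold with limma at 0.1 and 1 (-0.098 and -0.092), 1 row per gene (-0.27) and total reads (-0.16), and ran from -0.40 to -0.22 with 1 library left out. SLC1A4 missed it with DESeq2 (0.33), no minimum level (0.32) and a minimum summed RPKM of 1 (0.32), and ran from 0.29 to 0.45. The signs of SLC3A2 and SLC1A5, neither called, turned with limma at 0.1 and 1 (SLC3A2 0.025 and 0.024, SLC1A5 0.14 and 0.13) and total reads (0.10 and 0.073), and that of SLC3A2 with a minimum RPKM of 5 (0.0083). With the row with the most reads in place of sums, the ratio of SLC7A6 to SLC3A2 moved to 0.97, SLC38A2 to SLC38A1 to 0.66 and SLC38A5 to SLC38A1 to -1.03. Of the named genes of the other lists, calls were lost with trends removed for SLC3A1 (0.30), SLC15A4 (0.38), RRAGC (0.12), LAMTOR5 (-0.14), MLST8 (-0.18), PSAT1 (0.18), CAD (0.18) and PYCR1 (-0.17), and on total reads for LAMTOR5 (-0.035), MLST8 (-0.094), RHEB (-0.079), DDIT3 (-0.30) and PYCR1 (-0.13). With limma at 0.1, the calls of SLC38A7 (0.39), LAMTOR5 (-0.035), MLST8 (-0.12), RHEB (-0.00011), DDIT3 (-0.21), MTHFD2 (-0.27), PHGDH (-0.18) and PYCR1 (-0.31) were lost. With trends removed and calls kept, HBZ, HBG1 and HBG2 were at -0.54, -0.35 and -0.33, and AKT1S1 was at 0.42. On total reads the median log2 fold change of all tested genes lies 0.17 higher than after TMM scaling. The limma values also have no TMM scaling. The causes of the other shifts were not tested.

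Same-numbered libraries of the groups had correlations of 0.47, 0.19 and -0.019 between their deviations from the group means. The labels do not say whether same-numbered libraries were prepared together, and a shared batch was not tested. With a replicate block 5287 genes were called in place of 4441, and SLC7A5 (0.35) and SLC7A1 (0.77) passed the threshold; the other 7 transporters kept their side of it. Libraries 2 and 3 share a label series in both groups. Between the groups, correlations were -0.42 to -0.13 across label series and -0.019 to 0.47 within one, and with a term for the label series 5557 genes were called. SLC7A1, SLC7A5, SLC7A6, SLC38A1 and SLC1A4 had 13 to 145 reads in a control library, and the part of depth in their values was not tested.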
